A study of Mus musculus with 4 samples.

Results

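The Dlx homeobox genes were examined in RNA-sequencing data from the frontonasal prominence (FNP), the tissue of the embryonic face that forms the nose and snout. The members were the 6 rows of the deposited table named Dlx1 to Dlx6, of 33708 rows in all, and were chosen by symbol. The FNPs came from 4 FVB/NJ mouse embryos at E10.5, all with 29 somites. Of these, 2 were Smchd1+/+ (WT, 1 female and 1 male by the labels) and 2 were Smchd1MommeD43/MommeD43 (MD43, both male), homozygous for a chemically induced missense allele of the silencing factor SMCHD1. In another record of the study WT replicate 2 is called female, in which case sex and genotype cannot be told apart. WT replicate 2 and MD43 replicate 2 shared a mother. The FNP was cut from the maxillary prominence along their boundary, and each piece was 1 library. The comparison asks which transcripts differ in this tissue when SMCHD1 carries the MommeD43 change.

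Dlx genes encode homeodomain transcription factors related to Distal-less of the fruit fly. In mammals they lie as linked pairs that face each other, with shared enhancers between them, and both genes of a pair are often active in the same cells. In the neural crest mesenchyme of the first arch, Dlx1 and Dlx2 are active in the upper and the lower jaw, whereas Dlx5 and Dlx6 specify the lower jaw. Dlx1 and Dlx2 also direct the formation of inhibitory neurons in the ventral forebrain, and Dlx3, Dlx5 and Dlx6 are active in surface ectoderm and sensory placodes.

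The 3 pairs were found on chromosomes 2, 11 and 6 (GRCm38). Dlx1 (chromosome 2, 71528113 to 71533981, plus strand) and Dlx2 (71543408 to 71546754, minus strand) were 9426 bp apart. Dlx3 (chromosome 11, 95120119 to 95125296, plus strand) and Dlx4 (95140447 to 95146263, minus strand) were 15150 bp apart. Dlx6 (chromosome 6, 6863334 to 6868568, plus strand) and Dlx5 (6877805 to 6882085, minus strand) were 9236 bp apart. In every pair the genes pointed towards each other. Non-coding RNAs of these loci in the table were Dlx1as, an antisense transcript over Dlx1, Dlx4os, which starts within Dlx4, and Dlx6os1 and Dlx6os2 over Dlx6. Dlx6os1 is known as a transcript of the enhancer region between Dlx5 and Dlx6.

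The 250 bases before the annotated start were taken from RefSeq (GRCm38.p6) for the 3 transcripts of these loci whose start region held at most 1 exon base. They are shown because 2 of the transcripts had differences within the counting interval (Dlx2 and Dlx6os1). The other, Dlx4os, had the largest difference of these loci, on few reads, and its start region lies in an intron of Dlx4. Capitals mark TAATTA and TAATTG, the core letters that many homeodomains bind, on either strand. TAATTG reads CAATTA on the other strand, and the marked matches do not overlap.
Dlx2 (chr2:71546755-71547004, minus strand): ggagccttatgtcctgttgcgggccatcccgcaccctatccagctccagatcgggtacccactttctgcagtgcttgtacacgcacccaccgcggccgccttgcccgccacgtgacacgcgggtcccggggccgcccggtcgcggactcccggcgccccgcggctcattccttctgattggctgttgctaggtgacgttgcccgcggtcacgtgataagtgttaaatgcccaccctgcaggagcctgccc
Dlx6os1, downstream start (chr6:6861684-6861933, minus strand): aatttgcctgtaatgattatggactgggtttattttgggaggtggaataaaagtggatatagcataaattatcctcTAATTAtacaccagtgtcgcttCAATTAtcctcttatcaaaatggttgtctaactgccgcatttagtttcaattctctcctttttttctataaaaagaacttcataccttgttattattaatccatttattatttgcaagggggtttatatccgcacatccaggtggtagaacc
Dlx4os (chr11:95144803-95145052, plus strand): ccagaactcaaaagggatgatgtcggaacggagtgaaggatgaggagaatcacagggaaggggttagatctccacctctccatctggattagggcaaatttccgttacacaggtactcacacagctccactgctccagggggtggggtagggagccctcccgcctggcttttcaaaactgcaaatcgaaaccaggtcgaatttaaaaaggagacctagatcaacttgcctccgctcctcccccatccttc
The Dlx2 region was rich in CG (24 CG dinucleotides, 66.4% G and C) and held neither core. The Dlx6os1 region held 3 CG dinucleotides and 2 cores, 1 of each kind, and the Dlx4os region held 7 CG dinucleotides and neither core. Of 32851 RefSeq start regions of this length, 4.84% held TAATTA and 7.17% held TAATTG, and the median number of CG dinucleotides was 6. A match describes the sequence and does not show that a factor binds there.

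Both libraries of a genotype are merged in the table into 1 value, an average on the log2 RPKM scale (reads per length of exon and per size of library), so a difference carries no replicate test. The counts of both libraries, multiplied with each other, could be recovered from these values. Reads of a genotype below are the geometric mean of its libraries. The depth that the values imply, as the geometric mean of the 2 libraries of a genotype, was 22328791 reads in MD43 and 16055882 in WT. Errors after a difference are the smallest standard error that counting these reads allows, and 95% intervals are made from it. Neither covers the variation between embryos. Smchd1 itself was at 3.30 log2 RPKM in MD43 and 3.31 in WT. In whole tissue, fewer cells of a type and less RNA per cell cannot be told apart.

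In WT, the most abundant member was Dlx2 at 5.79 RPKM, followed by Dlx5 at 4.70, Dlx1 at 4.60, Dlx3 at 4.54 and Dlx6 at 3.65 RPKM. Dlx4 was at 0.066 RPKM. Dlx5, Dlx1 and Dlx3 were within 0.031 and 0.019 of their neighbours in this order on the log2 scale, less than the counting error of these steps. Of the 15376 genes that reached 10 reads in either genotype, from 42.0% to 53.1% were below these 5 members, and 0.793% were below Dlx4. In MD43 the order was Dlx5 (6.75 RPKM), Dlx3 (6.38), Dlx2 (5.83), Dlx6 (4.39), Dlx1 (2.64) and Dlx4 (0.146). The steps from Dlx5 to Dlx3 and from Dlx3 to Dlx2 were within the counting interval, and the others exceeded it. Dlx1 was in the third place in WT and in the fifth in MD43.

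**Figure D1:**
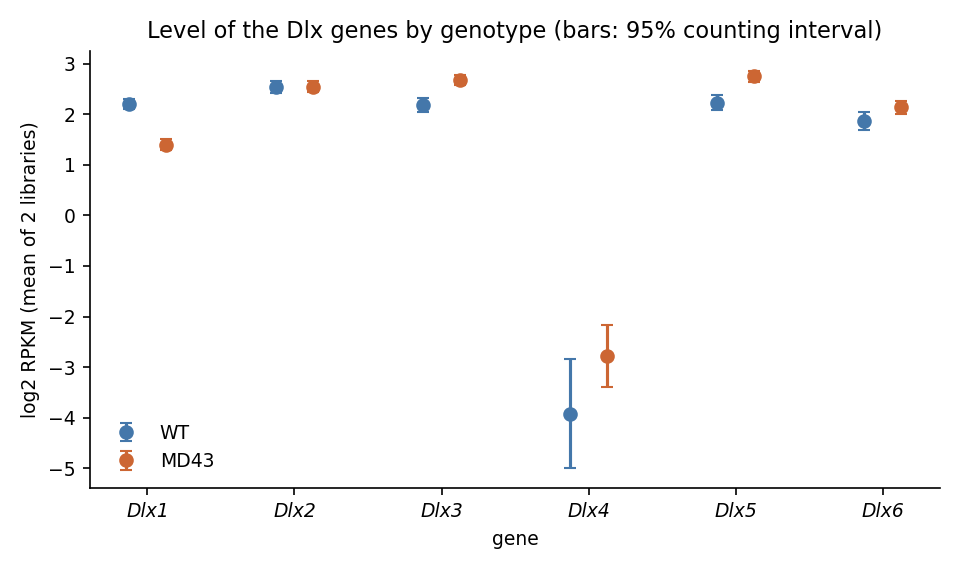
Level of each Dlx gene in WT (blue) and MD43 (orange), as log2 RPKM averaged over 2 libraries by the authors. Bars are 95% intervals from read counting and do not cover variation between embryos. Dlx1 lies lower in MD43 (1.40 against 2.20), Dlx2 is level, and Dlx4 lies far below the other 5 genes.

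Dlx1 was the 1 member with a lower value in MD43, and the other 5 had higher values. All 6 members reached 10 reads in a genotype, and 2 of them were 1.5-fold or more apart, Dlx1 with the lower and Dlx4 with the higher value in MD43. Over all 15376 genes with 10 reads, 10.7% were 1.5-fold or more apart, 6.43% with a lower and 4.23% with a higher value. At 2-fold, 1 member (Dlx4) was higher and 0 were lower, against 1.64% and 2.47% of all genes and 4.11% in either direction. Dlx4 reached 10 reads in MD43 and not in WT, so its higher value follows in part from this filter. The median log2 difference of the members was 0.38, beside 0.006 for all genes. The summed RPKM of the members was 26.1 in MD43 and 23.3 in WT.

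**Figure D2:**
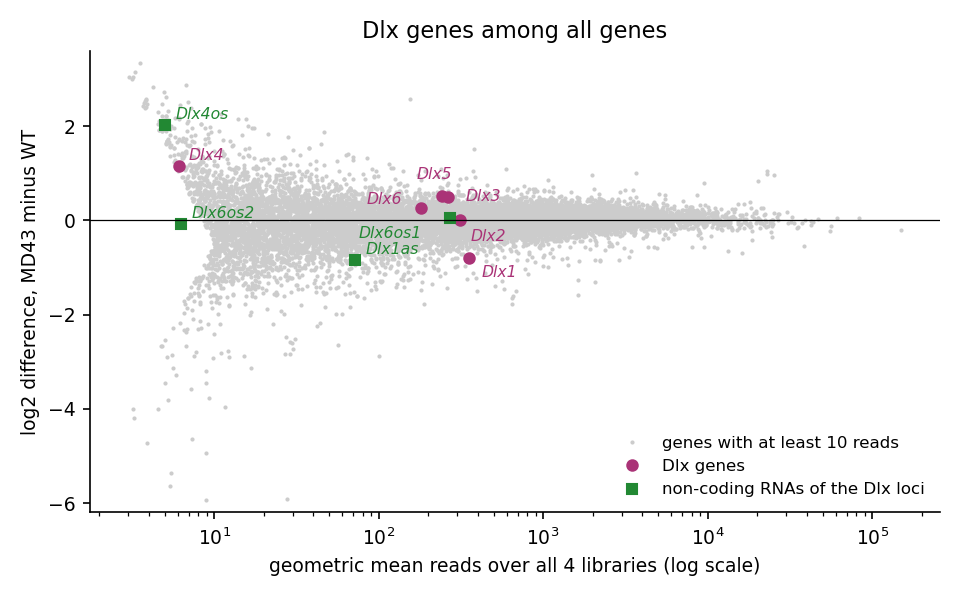
Log2 difference of MD43 minus WT (vertical) against the geometric mean reads of all 4 libraries (horizontal, log scale) for genes that reach 10 reads (grey), the 6 Dlx genes (purple circles) and the non-coding RNAs of their loci (green squares, of which Dlx6os2 has fewer reads). Dlx1 and Dlx1as lie low among genes of similar reads, and Dlx4 and Dlx4os lie high where few reads spread all genes widely.

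The values of the single libraries were then bounded. A product of 2 whole counts has few factor pairs, and pairs more than 4-fold apart were left out. Of products from 10000 to 400000, 99.8% in WT and 99.8% in MD43 had such a pair, against 27.4% and 28.1% after 1 was added to each. From genes with a single pair, the deeper library of a genotype had 1.40 times the reads of the other in WT and 1.52 times in MD43. Pairs whose libraries would differ by more than 2-fold after this scaling were set aside. Under 2-fold lay 98.2% of single-pair genes in WT and 99.2% in MD43, with the larger count taken as that of the deeper library. What remains is called an assignment, and an assignment does not say which embryo a count belongs to. This step was chosen after the data were seen.

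Dlx1, which acts early in interneuron and arch development, had 318 reads in MD43 and 398 in WT. The MD43 libraries held either 215 and 470 or 235 and 430 reads, that is, from 2.20 to 3.16 RPKM. The WT libraries held 262 and 606, 303 and 524, or 393 and 404 reads, from 3.58 to 5.92 RPKM. In all 8 assignments both MD43 libraries were below both WT libraries, and without the limit of 2-fold in 9 of 32. The log2 difference was -0.80 ± 0.08 (counting SE), or 1.74-fold lower, with an interval from -0.95 to -0.65. Among the 3834 genes with 100 to 632 reads in both genotypes, 3.76% were at least 1.5-fold lower, and 1.49% lay below Dlx1. Of the 3782 such genes with an assignment, 4.2% had both MD43 libraries below both WT libraries in every assignment.

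Dlx2, the partner of Dlx1, had 372 reads in MD43 and 265 in WT. Its WT libraries held 248 and 284 reads, from 4.58 to 7.32 RPKM, and its MD43 libraries lay between 5.05 and 6.74 RPKM. The ranges overlapped in all 8 assignments. The log2 difference was 0.01 ± 0.08, with an interval from -0.15 to 0.17.

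The genotypes thus differed by unequal amounts in the genes of this pair. Dlx1 per unit of Dlx2 (ratio of RPKM) was 0.794 in WT and 0.452 in MD43. The difference of Dlx1 minus that of Dlx2 was -0.81 ± 0.11 (counting interval -1.03 to -0.59). Since both genes were read in the same libraries, this value does not depend on the scaling of the libraries. The ratio was not bounded in single libraries. Some assignments allow a WT library with 262 reads of Dlx1 and 284 of Dlx2, and an MD43 library with 470 and 435. The ratios of single libraries may therefore overlap between the genotypes.

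Dlx1as (chromosome 2, 71516454 to 71537891, minus strand) had a difference close to that of Dlx1. Its reads came to 63.8 in MD43 and 82.0 in WT. The libraries held 81 and 83 reads in WT, from 2.62 to 3.75 RPKM, and 38 and 107 in MD43, which is 1.29 and 2.38 RPKM. Both MD43 values were below both WT values in 2 of 2 assignments, and without the limit of 2-fold in 2 of 4. Genes with so few assignments meet this more easily. Dlx1as lay below the 100 to 632 reads for which a share of all genes was made. The log2 difference was -0.84 ± 0.17 (1.79-fold lower). Dlx1as shares 335 exon bases with Dlx1, on the opposite strand, which is 20.6% of its exons. At the read density of Dlx1 these bases would bring 24.7 reads in WT and 19.7 in MD43, if coverage is even.

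Whether strand was used in the counting matters for such pairs, and the table bears on it. For 56 pairs, the exons of a gene lay wholly within those of a gene on the opposite strand that would bring at least 50 WT reads. The median inner gene had 102% of the reads that counting without strand would give, and 6 of the 56 had less than 10%. The labels name a stranded kit. Reads of the overlapping parts of Dlx1 and Dlx1as were therefore treated as shared.

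**Figure D3:**
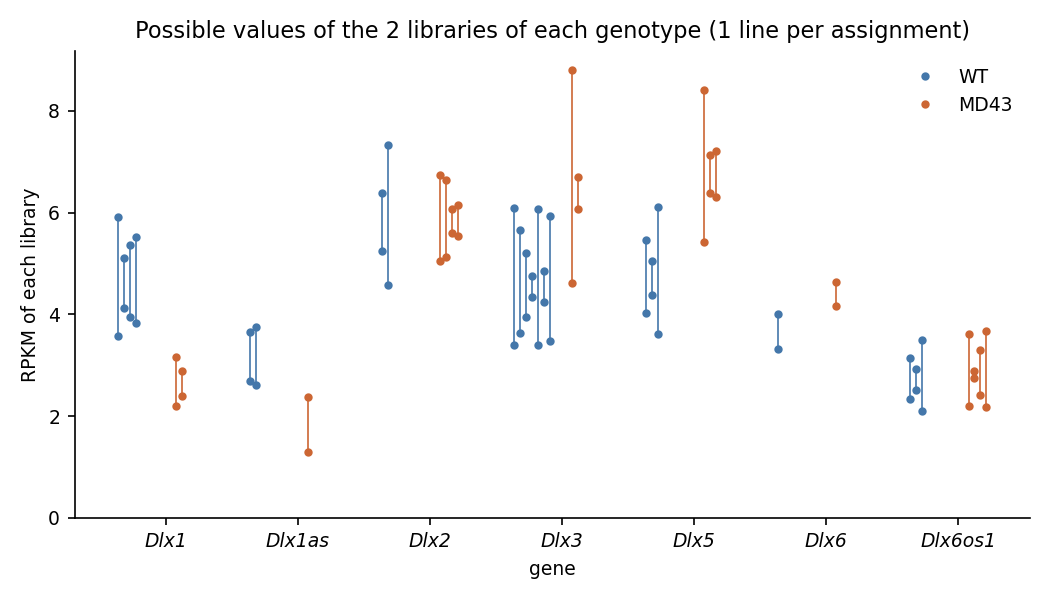
Possible RPKM of the 2 libraries of WT (blue) and MD43 (orange) for members and non-coding RNAs with enough reads. Each line joins the 2 library values of 1 assignment. Under the limit of 2-fold between libraries, Dlx1, Dlx1as and Dlx6 show no overlap between genotypes, Dlx3 and Dlx5 overlap in some assignments, and Dlx2 and Dlx6os1 overlap in all.

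Dlx5, a regulator of lower jaw, olfactory placode and bone, had 341 reads in MD43 and 171 in WT. Its WT libraries held 124 and 235 or 155 and 188 reads, from 3.61 to 6.12 RPKM. Its MD43 libraries held 222 and 524, 262 and 444, or 296 and 393 reads, from 5.42 to 8.41 RPKM. Both MD43 libraries were above both WT libraries in 7 of 9 assignments and overlapped them in the other 2, and without the limit of 2-fold they were above in 7 of 36, so the overlap of the groups is not settled. The log2 difference was 0.52 ± 0.10 (1.44-fold higher, interval 0.34 to 0.71).

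Dlx6, its partner, was the 1 member whose 4 counts were fixed within these limits. The WT libraries held 107 and 181 reads (3.32 and 4.01 RPKM) and the MD43 libraries 179 and 303 reads (4.16 and 4.63 RPKM). Both MD43 libraries were above both WT libraries, and without the limit of 2-fold in 1 of 4 assignments. The gap between the genotypes was small, with a log2 difference of 0.27 ± 0.11 (1.20-fold higher, interval 0.05 to 0.48). Of genes with 100 to 632 reads, 1.19% had both MD43 libraries above in every assignment. Genes with fewer assignments meet this more easily.

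The difference of Dlx5 minus that of Dlx6 was 0.26 ± 0.15, and its counting interval (-0.03 to 0.54) included 0. Dlx6os1 (chromosome 6, 6820189 to 6871592, minus strand) was level. Its reads came to 326 in MD43 and 225 in WT. On the log2 scale the difference was 0.06 ± 0.09, and the library values overlapped in all 12 assignments. It shares 0 exon bases with Dlx6. Dlx6os2 (chromosome 6, 6863797 to 6865150, minus strand) came to 7.21 reads in MD43 and 5.48 in WT. The 104 exon bases that it has in common with Dlx6 would by themselves bring 10.2 and 6.09 reads.

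Dlx3, a regulator of ectoderm, placenta and tooth, had 371 reads in MD43 and 190 in WT. Its WT libraries lay between 3.39 and 6.08 RPKM over 7 assignments. Its MD43 libraries held either 316 and 436 reads (6.08 and 6.69 RPKM) or 218 and 632 reads (4.62 and 8.81 RPKM). The genotypes did not overlap in 6 of 14 assignments, and without the limit of 2-fold in 6 of 48. Dlx3 thus had a log2 difference of 0.49 ± 0.09 (1.40-fold higher, interval 0.31 to 0.67). Of the genes with 100 to 632 reads, 0.704% were at least 1.5-fold higher. Dlx3 and Dlx5 were both short of that fold, and 98.4% and 98.8% of these genes had lower differences.

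Dlx4, active in placenta and branchial arches, was near the limit of detection. Its geometric mean was 10.7 reads in MD43 and 3.46 in WT. The product of the WT counts was 12, which allows 3 and 4 reads, 2 and 6, or 1 and 12. The MD43 product was 114, from 6 and 19 reads, 3 and 38, 2 and 57, or 1 and 114. Of these, 3 and 4 reads in WT met the limit of 2-fold between libraries. None of the MD43 pairs met it, so the limit was not applied to Dlx4. The log2 difference was 1.15 ± 0.63, and its interval (-0.09 to 2.38) included 0. With a pseudocount of 0.1 RPKM it was 0.57 and with 1 RPKM 0.10, both short of 1.5-fold. With 6 and 19 reads against 3 and 4, the summed reads scaled to depth were 2.55-fold higher in MD43 (exact 95% interval 1.07 to 6.98), and against 2 and 6 reads 2.23-fold higher (0.975 to 5.72). A difference of Dlx4 was therefore not detectable at this depth for every split of its reads, and its other splits were not tried. The difference of Dlx3 minus that of Dlx4 was -0.66 ± 0.64 (interval -1.91 to 0.59).

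Dlx4os (chromosome 11, 95145052 to 95159047, plus strand) had 0 and 5 reads in the WT libraries. The MD43 libraries held 11 and 13 reads, or 1 and 143. With the first pair, the summed reads scaled to depth were 3.42-fold higher in MD43 (exact 95% interval 1.28 to 11.5, counting error only). The other pair was not tried. Like Dlx4, Dlx4os passed the filter on reads in MD43 (geometric mean 11.96) and not in WT (2.12). Such a filter favours a higher value in MD43, and the interval does not allow for this. Dlx4os shares 79 exon bases with Dlx4, which at the density of Dlx4 would bring 0.258 reads in MD43.

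**Figure D4:**
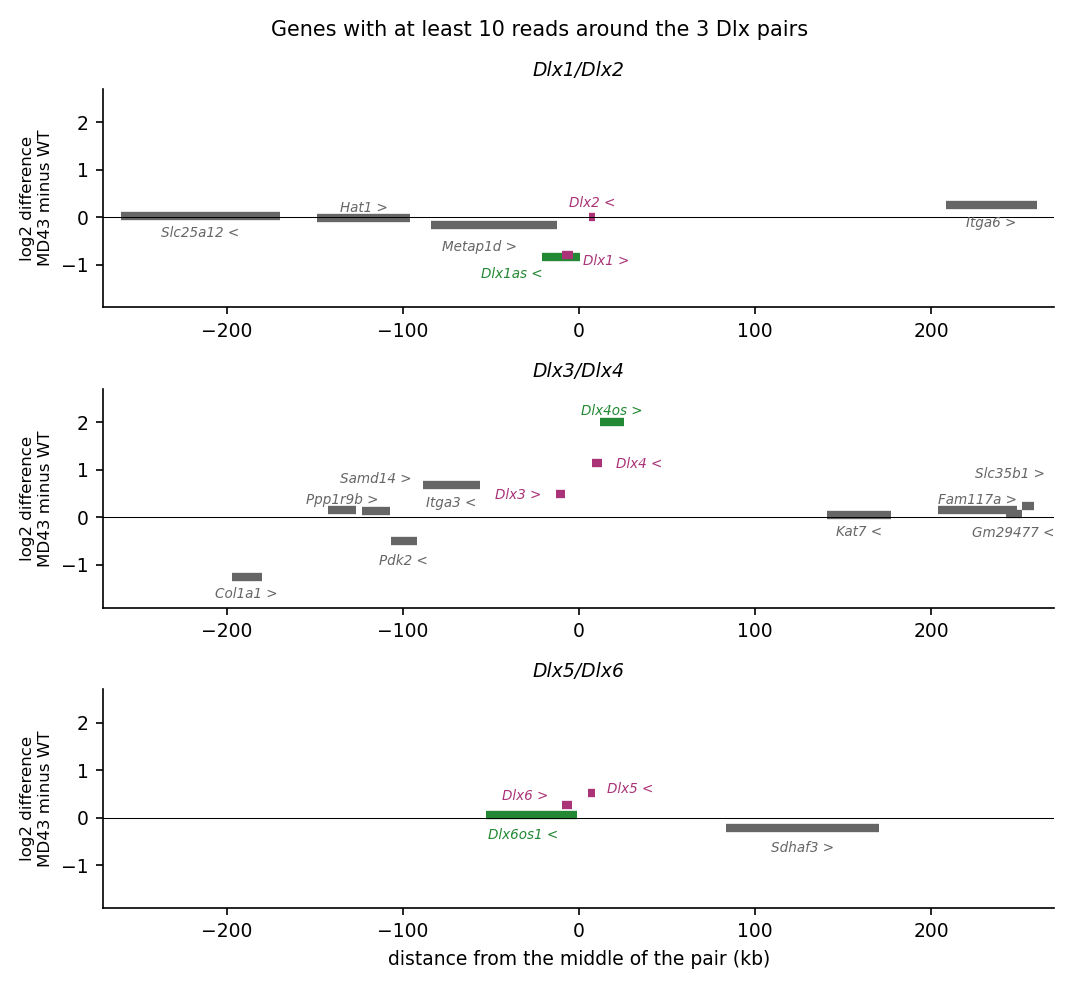
Log2 difference of MD43 minus WT (vertical) for genes with at least 10 reads around each Dlx pair, drawn along the chromosome as kb from the middle of the pair. Purple bars are Dlx genes, green bars their non-coding RNAs and grey bars other genes, and arrows after the names give the strand. Dlx1 and Dlx1as lie below their neighbours, and Dlx3, Dlx4 and Dlx4os lie above 0.

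Of the 5 coding genes next to the pairs with 10 reads, 1 was at least 1.5-fold apart, against 10.7% of all genes with 10 reads. Beside Dlx1 and Dlx2, the aminopeptidase gene Metap1d, 2918 bp away, had a log2 difference of -0.17 ± 0.10, and the integrin gene Itga6, 198861 bp away, one of 0.25 ± 0.03. Beside Dlx3 and Dlx4, Itga3, which encodes an integrin of epithelia, was 43317 bp away and had a difference of 0.67 ± 0.05, above that of Dlx3. Tac4, on the other side, had 0 reads in every library. Beside Dlx5 and Dlx6, the proteasome subunit gene Sem1 was at 0.11 ± 0.03 and Sdhaf3, for assembly of a respiratory complex, at -0.23 ± 0.09.

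Genes around the Dlx factors were described as lists, by the count of members with at least 10 reads that were at least 1.5-fold apart. Over all genes with 10 reads, 6.43% were at least 1.5-fold lower and 4.23% higher, and the median was 0.006. Endothelin signalling from the arch ectoderm switches on Dlx5 and Dlx6 in the lower jaw. Of its 7 genes, 0 were 1.5-fold higher and 0 lower, and the median was -0.007. The ligand gene Edn1 had 11.4 reads in MD43 and 10.6 in WT (-0.37 ± 0.44). The receptor gene Ednra was at -0.34 ± 0.09, the downstream factor gene Mef2c at -0.37 ± 0.11 and the converting enzyme gene Ece1 at 0.26 ± 0.05.

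Of the genes known to depend on Dlx5 and Dlx6 in the lower jaw, 6 of 7 listed here were in the table and 3 had 10 reads. Of these 3, 1 was at least 1.5-fold higher and 0 lower, and the median was 0.46. The homeobox gene Gsc had 47.9 reads in MD43 and 13.8 in WT (1.32 ± 0.31). Bmper, a modulator of BMP signalling, was at 0.46 ± 0.13, and Alx4, which is also a gene of the FNP itself, at 0.01 ± 0.03. Hand1 and Hand2, which mark the distal lower jaw, were at 2 reads or fewer in both genotypes. Gbx2, also under the filter, had a lower value in MD43 (6 reads against 9.17, -1.09 ± 0.54). With all 6 members in the table the median was 0.016.

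Msx genes encode homeodomain repressors that share binding sites with DLX proteins. Of the 6 measured members of the list of Msx and other homeobox genes, 2 were at least 1.5-fold lower and 0 higher, with a median of -0.35. Barx1, a jaw and tooth factor, was at -1.30 ± 0.30 and the forebrain factor gene Gsx1 at -1.06 ± 0.31. Barx2 (-0.38 ± 0.21) and Gsx2 (-0.33 ± 0.16) had smaller differences. Of the 9 measured ventral forebrain genes, which lie downstream of or beside Dlx1 and Dlx2, 2 were at least 1.5-fold lower and 0 higher, with a median of -0.03. Lhx8 was at 35.5 reads in MD43 and 101 in WT (-1.98 ± 0.20), and Lhx6 was at 33.2 and 69.8 (-1.55 ± 0.22). These LIM homeobox genes are active both in the ventral forebrain and in the first arch. Nkx2-1, of the ventral forebrain and hypothalamus, was at -0.45 ± 0.06 and Gad1, for the synthesis of GABA, at -0.45 ± 0.23.

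Of 10 signals of the facial ectoderm, 2 were at least 1.5-fold lower and 0 higher, with a median of 0.15. They were Wnt3 (-1.48 ± 0.16) and Fgf17 (-0.64 ± 0.07). Fgf9 was at 0.42 ± 0.13 and Fgf10 at 0.42 ± 0.12.

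Markers of the tissues that a dissected FNP piece can hold were read in the same way, against the same shares of all genes (6.43% lower and 4.23% higher). Of the 12 surface ectoderm markers, 7 were at least 1.5-fold higher and 0 lower, 11 had a higher value and the median was 0.60. The summed level was 200 RPKM in MD43 and 130 in WT. Krt5 was at 1.17 ± 0.28, Cldn6 at 0.87 ± 0.05, Cdh1 at 0.73 ± 0.05 and Krt8 at 0.70 ± 0.04. Dlx3, Dlx5 and Dlx6, which are known from ectoderm and placodes, were higher beside these markers, and the part of the ectoderm in their values was not tested. Of the 10 nasal placode genes, 0 were 1.5-fold apart and 9 had a higher value (median 0.18, summed RPKM 90.9 and 81.1), with Ebf1 at 0.46 ± 0.15, Neurod1 at 0.38 ± 0.12, Eya2 at 0.36 ± 0.05 and Pax6 at -0.35 ± 0.03.

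All 12 frontonasal mesenchyme markers, which define the labelled tissue, had 10 reads in a genotype, so none was absent. Of them, 2 were at least 1.5-fold lower and 0 higher, and 7 had a lower and 5 a higher value (median -0.22, summed RPKM 138 and 140.1). Col1a1 was at -1.25 ± 0.08, Twist2 at -0.71 ± 0.16, Twist1 at -0.39 ± 0.05 and Col2a1 at 0.40 ± 0.02. Of the 9 diencephalon genes, 3 were at least 1.5-fold lower and 0 higher, 7 had a lower and 2 a higher value (median -0.38, summed RPKM 114 and 118). Rax was at -2.17 ± 0.24, Otx2 at -0.62 ± 0.03 and Lhx9 at -0.51 ± 0.17. Barhl2 was at -5.91 ± 0.50, on 4.24 reads in MD43 and 183 in WT. Of the 2 with a higher value, Lhx2 was at 0.49 ± 0.02 and Wnt8b at 0.04 ± 0.04. Dlx1, which is known from the diencephalon and the ventral forebrain, was lower beside 7 of these 9 genes, and their part in its value was not tested. Its partner Dlx2, also a gene of the ventral forebrain, was level (0.01 ± 0.08). Of the 7 red blood cell genes in the table, 6 were at least 1.5-fold higher and 0 lower (median 0.84, summed RPKM 6006 and 3165). They were led by Hba-a2 at 2.57 ± 0.15, which can share reads with its near-identical copy Hba-a1, Hbb-bh1 at 1.04 ± 0.01, Klf1 at 0.88 ± 0.19 and Hbb-y at 0.84 ± 0.01. Their part in the Dlx values was not tested.

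**Figure D5:**
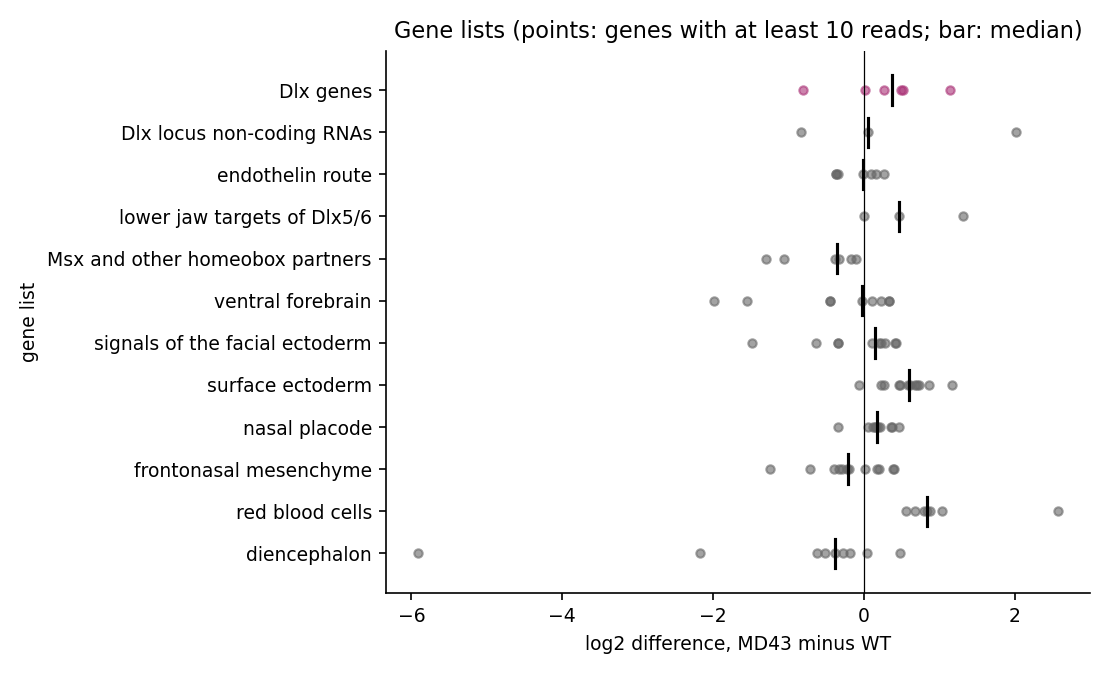
Log2 difference of MD43 minus WT for the Dlx genes (purple) and for each gene list (grey), 1 point per gene with at least 10 reads and a bar at the median. The Dlx genes spread from -0.80 to 1.15, and the surface ectoderm and red blood cell genes lie almost wholly to the right of 0.

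With 2 values per gene, likeness to other genes can only be given as the distance between pairs of log2 RPKM values. The nearest coding gene to Dlx1 was Copz2 (distance 0.066, difference -0.74), with 3 genes within 0.1. Dlx5 was nearest to Tln2 (0.024, difference 0.49), Dlx3 to Filip1 (0.040, difference 0.54) and Dlx4 to Slc26a7 (0.072, difference 1.17), with 9, 7 and 1 genes within 0.1. Dlx2 was nearest to Herpud2 and Dlx6 to Lcmt2, with 169 and 54 genes within 0.1. The values of Dlx1, Dlx3, Dlx4 and Dlx5 were thus shared by few genes and those of Dlx2 by many.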

How the data were processed

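The FNPs of 2 WT and 2 MD43 embryos were sequenced by the study as poly(A) libraries, made with a stranded kit per the labels, while the methods name either a stranded or another kit. Per the labels and the study's methods, the authors trimmed reads with Trim Galore 0.4.4, mapped them with HISAT2 2.0.5 to GRCm38.p6 and quantified them in SeqMonk. The deposited table holds log2 RPKM values, which the authors normalized for depth and length of transcripts, with the 2 libraries of a genotype merged. It also holds the authors' fold change (log2), mean and FDR (a q-value listed for some genes) of their own comparison, none of which was used. No values per library were given, so no test was run.

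The table was joined to GENCODE M21 on symbol, chromosome, start and end (33101 of 33708 rows), and 1 repeated row was dropped. The most frequent difference, shared by 12862 rows, was taken as that of genes without reads, with 0.9 reads set for a library without any. Of these rows with a match, 97.9% gave 1 constant once exon length was removed. This fixed the geometric mean depth of a genotype and the product of the counts. Lists and shares used genes that reached 10 reads in either genotype. Counts were called whole within 0.2. The recovery was also run on simulated data. These were made with the same 0.9 reads and exon lengths, so the simulation could not test these settings. Python 3.11.15 with numpy 2.4.6 and pandas 2.3.3 was used.

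The members and lists were chosen with earlier results of these data known. Named were all Dlx genes and their non-coding RNAs, the nearest coding gene on each side, up to 4 members of each list by size of difference, the nearest gene in level, and Smchd1. A list gene left out of its list is not reported here. Hand1, Hand2, Gbx2, Lhx2, Wnt8b and Hba-a1 were named after their values were seen. Alternatives were pseudocounts, centring, a correction for GC content and exon length, and other filters and folds.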

Additional observations from a re-analysis of the deposited data

How the results depend on the processing

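Of 24 alternatives for the member differences (pseudocounts of 0.1 and 1 RPKM, centring, and the correction for GC content and exon length), 23 stayed within the counting interval. Dlx1 was at -0.62 with a pseudocount of 1 RPKM, which shrinks changes of low genes by construction. Dlx4 was at 0.57 with 0.1 RPKM and 0.10 with 1 RPKM, under 1.5-fold in both. Of the 2 members at least 1.5-fold apart, 1 was left at a fold of 2, 1 with either pseudocount and 1 with at least 50 reads. The difference of Dlx3 minus that of Dlx4 turned to 0.31 with a pseudocount of 1 RPKM, which exceeds the level of Dlx4. Of 44 alternatives for list medians, 41 moved less than the counting interval. The median was -0.39 for the non-coding RNAs with at least 50 reads, 0.016 for the lower jaw genes with no filter, and -0.24 for the diencephalon genes with a pseudocount of 1 RPKM. Without the limit of 2-fold between libraries, the MD43 libraries were below in 9 of 32 assignments for Dlx1 and 2 of 4 for Dlx1as and above in 1 of 4 for Dlx6, so these 3 separations rest on that limit. No paired analysis was possible because each genotype has 1 merged value, and no fit could leave out a replicate. Depth limits Dlx4 and Dlx4os.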
